A study of Mus musculus with 2 samples.

Results

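The regions described here are stretches of accessible chromatin in mouse heart whose middle base lies in protein-coding sequence, away from the starts of genes. A region was a member if it was made of merged peaks with at least 1 peak in each replicate, lay over 1 kb from every annotated start of a protein-coding gene, and had its middle base in an annotated coding segment. The rule found 1943 such coding-exon regions, 2.55% of the 76148 regions with a peak in each replicate that lay over 1 kb from a start, out of 158036 merged regions in either replicate. The data are DNase-seq of heart tissue from B6CASTF1/J male mice, at 14 days of age; the strain is the F1 of a C57BL/6J by CAST/EiJ cross. There was 1 group of 2 biological replicates and no contrast. Replicate 1 is labelled as 3 males, no number of animals is given for replicate 2, and pooling of hearts is not stated. No sorting of cells is stated, so a region open in more nuclei and one more open in each nucleus cannot be told apart.

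DNase I cuts DNA where chromatin is accessible, and a peak is a stretch with many cuts. A footprint is a short run of bases inside such a stretch that is protected from cutting, usually where a protein sits on the DNA. Coding exons can also hold such sites, so that the same bases spell codons and are bound by transcription factors. Some exons are known to work as enhancers of their own gene or of a neighbour, and others hold starts of shorter transcripts.

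4 of the strongest members are printed first, because they show how densely footprints lie in the regions with the highest signal. They are read from the reference GRCm38.p6, which is mm10, in the direction of the gene, and capitals mark the bases that lay in a footprint in both replicates. The Angptl6 stretch is chr9:20878131-20878430, minus strand, 300 bases of the first coding exon, of which 143 are in capitals. The Sptbn4 stretch is chr7:27361461-27361700, minus strand, whose bases 1 to 134 are coding and whose remainder is intron. The Spi1 stretch is chr2:91115161-91115320, plus strand, all in the last coding exon, which encodes part of the DNA-binding domain. The Zfp771 stretch is chr7:127254051-127254350, plus strand, all in the last coding exon, which encodes zinc fingers.
Angptl6: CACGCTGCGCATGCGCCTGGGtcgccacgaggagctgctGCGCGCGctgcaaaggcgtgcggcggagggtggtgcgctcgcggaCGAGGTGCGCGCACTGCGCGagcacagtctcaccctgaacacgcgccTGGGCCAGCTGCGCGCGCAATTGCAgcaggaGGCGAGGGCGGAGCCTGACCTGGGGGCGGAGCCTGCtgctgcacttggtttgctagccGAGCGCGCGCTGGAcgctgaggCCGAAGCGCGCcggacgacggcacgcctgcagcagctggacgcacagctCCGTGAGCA
Sptbn4: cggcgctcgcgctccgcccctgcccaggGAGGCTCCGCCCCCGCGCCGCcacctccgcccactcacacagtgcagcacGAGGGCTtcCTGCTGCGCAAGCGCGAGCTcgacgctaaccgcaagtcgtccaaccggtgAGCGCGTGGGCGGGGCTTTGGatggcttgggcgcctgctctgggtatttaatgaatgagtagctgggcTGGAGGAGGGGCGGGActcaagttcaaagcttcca
Spi1: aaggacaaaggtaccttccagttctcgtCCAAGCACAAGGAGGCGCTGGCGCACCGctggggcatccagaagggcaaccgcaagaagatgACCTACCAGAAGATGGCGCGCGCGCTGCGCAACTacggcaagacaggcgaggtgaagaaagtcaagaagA
Zfp771: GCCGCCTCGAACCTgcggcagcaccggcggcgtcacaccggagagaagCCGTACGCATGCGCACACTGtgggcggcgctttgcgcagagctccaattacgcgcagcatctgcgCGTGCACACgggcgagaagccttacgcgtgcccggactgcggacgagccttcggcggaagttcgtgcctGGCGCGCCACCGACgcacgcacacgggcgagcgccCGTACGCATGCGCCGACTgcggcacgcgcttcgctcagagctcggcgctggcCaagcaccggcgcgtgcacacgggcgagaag
Of these bases, 47.7% were in capitals at Angptl6, 35.4% at Sptbn4, 39.4% at Spi1 and 25.3% at Zfp771. At Sptbn4 some of the capitals lie in the intron. Over all members, 13.8% and 13.9% of coding bases lay in footprints of replicate 1 and replicate 2. These shares count coding bases in each replicate alone. Capitals needed a footprint in both replicates, so the percentages are not directly comparable.

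The signal of a typical coding-exon region was close to that of an intronic one. Signal is the authors' value for a peak, and the highest peak gave a region its value. Pairs of values here and later are for replicate 1 and then replicate 2. In replicate 1 the median was 0.879 in coding-exon regions, 1.06 in other exons, 0.936 in introns and 0.922 in intergenic DNA. In replicate 2 the medians were 0.740, 0.842, 0.728 and 0.710 in the same order. The ratio of the coding-exon to the intronic median was 0.939 in replicate 1 and 1.02 in replicate 2, with a mean of 0.978 ± 0.0544 (SD, n = 2), so the replicates differed in direction. With all regions of a single replicate, shared or not, the ratio was 0.898 in replicate 1 and 0.9057 in replicate 2, below 1 in both. Against other exons, which are untranslated or non-coding, the ratio was 0.832 and 0.879, lower in both. An annotated start of a gene that is not protein-coding lay within 1 kb of 28.9% of other-exon regions and 4.53% of members. The part of such starts in the ratio was not tested. Members spanned 0.149 to 26.04 in replicate 1 and 0.155 to 21.83 in replicate 2. Their 90th percentile, 3.40 and 2.74, exceeded the intronic 3.11 and 2.35 in both replicates. It lay below that of other exons, 4.17 and 3.26, and of intergenic DNA, 3.77 and 2.84, in both replicates. Regions are not replicates and 2 replicates allow no exact paired test below p = 0.5, so no test was run on these or later values.

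**Figure D1:**
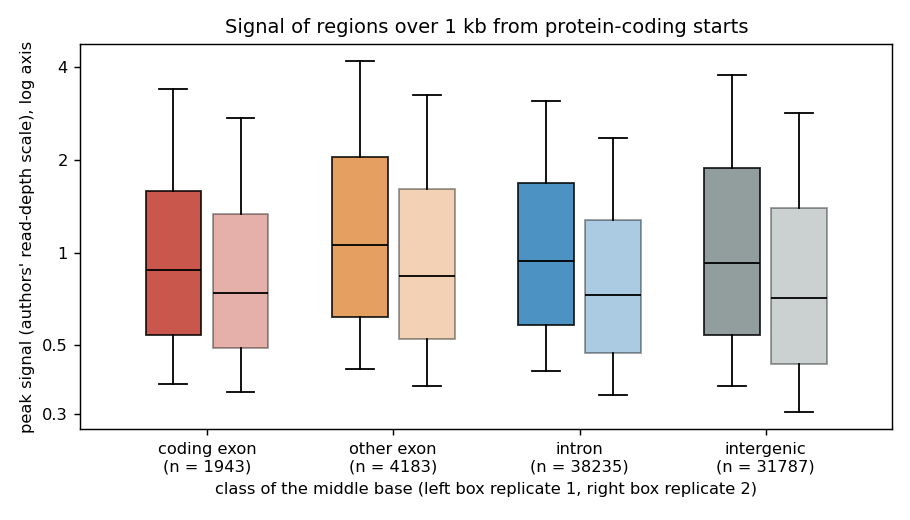
Peak signal, on a log axis, of regions over 1 kb from protein-coding starts by the class of their middle base, with the left box of each pair for replicate 1 and the right box for replicate 2. Boxes span the quartiles, lines mark medians and whiskers reach the 10th and 90th percentiles; coding-exon medians of 0.879 and 0.740 lie near intronic medians of 0.936 and 0.728.

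Set beside regions of like base composition, coding-exon regions were weaker than intronic ones in all but the lowest band of GC content. Their median GC content was 58.0%, against 52.5% in intronic regions, and from 45% GC upwards the median signal was higher in each higher band of both classes. In each of the 5 bands from 45% GC upwards, the coding-exon median lay below the intronic median in both replicates. At 55 to 60% GC it was 0.858 and 0.707 in 564 coding-exon regions, against 1.10 and 0.889 in 9375 intronic regions. At 65% or more it was 1.09 and 1.19 in 366 coding-exon regions, against 2.11 and 2.01 in 646 intronic regions. Under 45% the order was the other way round, with 0.901 and 0.603 in 43 coding-exon regions, against 0.837 and 0.579 in introns. Weighted over the bands, the ratio was 0.737 in replicate 1 and 0.771 in replicate 2. This comparison was added after the values were seen.

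The replicates ranked the members alike, with a Pearson correlation of 0.958 across the 1943 log2 signals, which describes regions and not independent samples. Replicate 1 was the higher in 72.5% of members, against 84.9% of intronic regions. On the log2 scale, signal in replicate 1 over that in replicate 2 had a median of 0.22 in members (SD over regions 0.35) and 0.35 in intronic regions. This ratio also went with GC content: among members it was 0.57 under 45% GC and -0.03 at 65% or more. Coding-exon regions were shared between replicates less often than the others. Of 3566 merged coding-exon regions, 54.5% had a peak in each replicate, with 818 in replicate 1 alone and 805 in replicate 2 alone. The share was 63.4% in introns and 62.6% over all 121594 merged regions away from starts. The coding-exon share was the lower one in every GC band, at 54.9% against 65.9% of intronic regions at 55 to 60% GC. What sets this lower sharing was not tested.

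**Figure D2:**
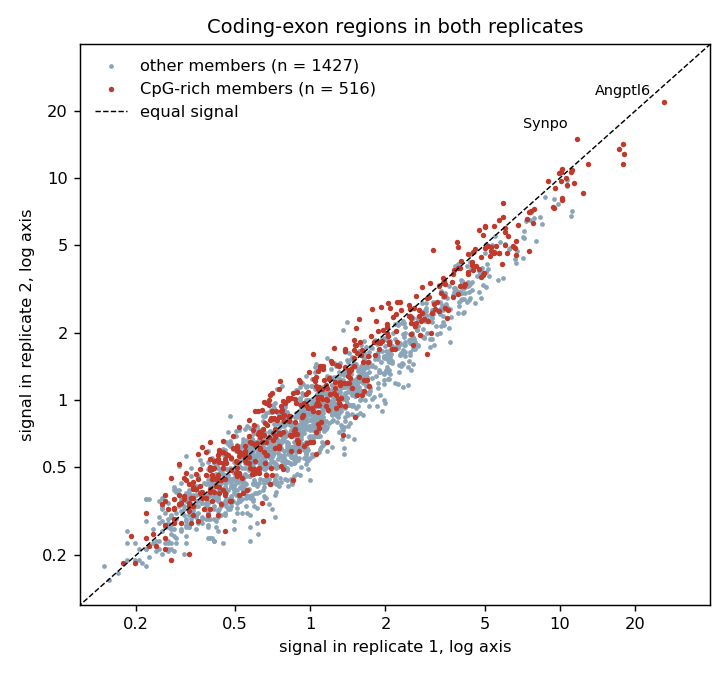
Signal of each of the 1943 coding-exon regions in replicate 1 (x, log axis) and replicate 2 (y, log axis), with 516 CpG-rich regions in red and the other 1427 in grey-blue; the dashed line marks equal signal. Most grey-blue points lie under the line, as replicate 1 was the higher in 79.1% of them, while it was the higher in 54.1% of the red points.

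Coding sequence held more accessible regions per base than introns over all eligible sequence, and fewer in 4 of 6 bands of GC content. Over the 25.9 Mb of coding sequence more than 1 kb from a start, 1.01% of the eligible genome, there were 75.1 members per Mb (95% Poisson interval 71.8 to 78.5, for counting error only). Introns held 36.9 regions per Mb and intergenic DNA 22.5, and the ratio of coding sequence to introns was 2.04. With the peaks of a single replicate the ratio was 2.08 in replicate 1 and 2.48 in replicate 2. Eligible coding sequence had a median GC content of 50%, against 42.0% in introns, measured in windows of 200 bp. Compared band by band, the number of members was 0.5955 times that given by the intronic rate, so the direction of the difference turned. At 55 to 60% GC, coding sequence held 116 regions per Mb and introns 255. Coding sequence held more than introns in the lowest and the highest band, with 557 against 452 per Mb at 65% GC or more. The banded comparison was added after the values were seen, and it sets the GC content of a region of any width against that of windows of 200 bp.

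Members per Mb of coding sequence varied less with distance from a start, between 45.4 and 103, than between the lowest and highest GC bands, with 5.64 and 557. By distance they numbered 103 at 1 to 2 kb from the nearest start, 79.2 at 2 to 5 kb, 69.3 at 5 to 10 kb, 67.8 at 10 to 20 kb, 68.8 at 20 to 50 kb, 58.8 at 50 to 100 kb and 45.4 beyond 100 kb. The ratio to introns at the same distance ranged between 1.58 and 2.50. The limit of 1 kb divides a dense part of the genome: of 4219 shared regions centred in coding sequence, 2276 lay within it. Just outside were regions in Tbx3, at 1003 bp with a signal of 1.09 and 1.14, Nat14 at 1004 bp and Ccdc170 at 1006 bp. Just inside were regions in Hand2, at 998 bp with 1.43 and 1.67, and in Tmem115 and Irs1, both at 996 bp. Tbx3 and Hand2 encode transcription factors of the developing heart.

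**Figure D3:**
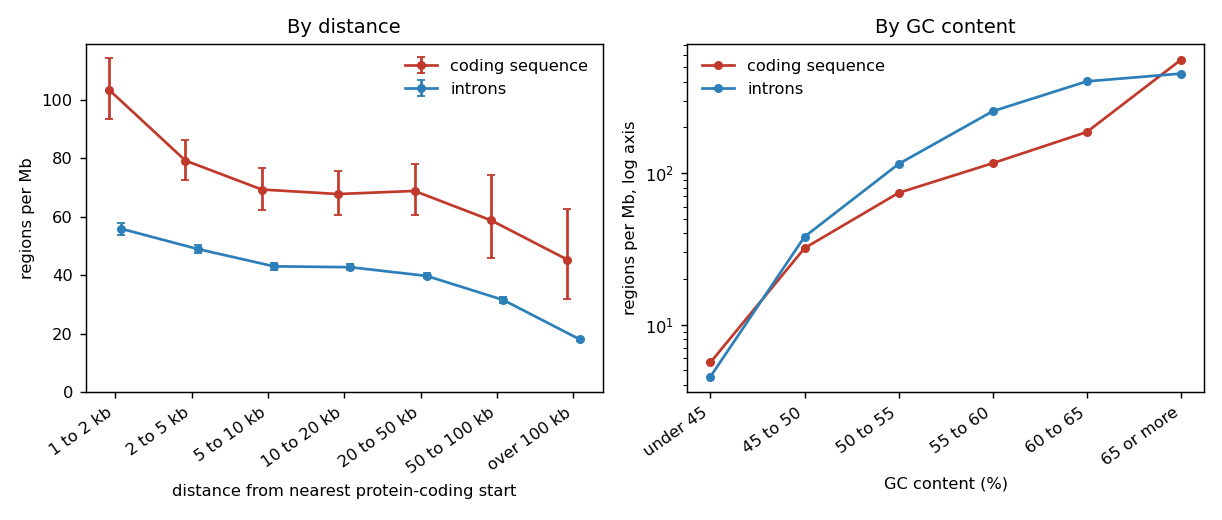
Regions per Mb in coding sequence (red) and introns (blue), by distance from the nearest protein-coding start with 95% Poisson intervals (left) and by GC content on a log axis (right). Red lies above blue at all 7 distances, while blue lies above red in the 4 GC bands between 45% and 65%.

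CpG-rich members made up most of the strongest ones. A region was counted as CpG-rich if its GC content was over 50% and its CpG count over 0.6 of that given by its base content. There were 516 CpG-rich members, 26.6%, against 3.31% of intronic regions, and eligible sequence was CpG-rich in 6.48% of coding windows and 0.404% of intronic windows. Within CpG-rich sequence the densities were 308 per Mb in coding sequence and 302 per Mb in introns, and outside it 59.0 and 35.8. Median signal was 0.975 and 0.952 in CpG-rich members, against 0.858 and 0.692 in the other members. The same order held in intronic regions, with 1.35 and 1.28 in CpG-rich ones, against 0.929 and 0.716 in the others. Signal exceeded 5 in 10.85% and 8.33% of CpG-rich members and in 17.09% and 13.77% of CpG-rich intronic regions. All 10 of the strongest members and 63 of the strongest 100 were CpG-rich, as were 55 of the 83 whose mean signal exceeded 5. An annotated start of a gene that is not protein-coding lay within 1 kb of 51 CpG-rich members, 9.88%, and of 37 others, 2.59%. In introns these shares were 15.43% of CpG-rich regions and 3.65% of the others. Whether a start of transcription lies in the remaining members was not tested.

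Members were more frequent per base in first, last and single coding exons than in internal ones. Exon position was read for the 1895 members whose middle base lies in the longest coding transcript of the gene. First coding exons held 132 members and 130 per Mb (95% interval 109 to 155). Last coding exons held 510 and 109 per Mb (99.3 to 118), and genes with a single coding exon 135 and 104 per Mb (86.8 to 123). Internal exons held 1118, or 59.0% of members in 72.2% of the sequence, and 61.4 per Mb (57.8 to 65.1). Along the coding sequence, the final 20% held 92.1 members per Mb and the first 20% held 68.2. Signal differed less, with medians of 0.826 and 0.740 in first, 0.858 and 0.695 in internal, 0.911 and 0.809 in last and 0.986 and 0.925 in only coding exons. Density also went with exon length, at 39.99 per Mb in coding exons under 100 bp, 126 from 300 to under 500 bp and 85.1 at 1000 bp or more. Of the regions, 37.7% lay wholly inside the exon, 23.4% covered all of it and 38.9% crossed 1 end. In internal exons 49.3% of middle bases were nearer the 5′ end, and 19.6% of all middle bases lay within 30 bp of an exon end.

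Most members were short, with a tail of wide ones. Median width was 200 bp after merging (quartiles 180 and 260, range 60 to 1760), the same median as in introns. Regions of 400 bp or more made up 9.11% of members and 4.18% of intronic regions, and these 177 members lay in long exons, with a median length of 777 bp. A median of 85.8% of a region's bases was coding. The base with the lowest false discovery rate for cutting lay in coding sequence in 92.4% and 92.8% of members, a median of 19 and 20 bp from the middle. The middle base is coding by the rule, so these shares are largely set by it. That rate was below 0.001 in 75.6% of members in replicate 1 and 68.5% in replicate 2. It was not computed for regions of other classes, so these shares cannot be called high or low.

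Footprints lay in most members. In replicate 1, 88.7% of coding-exon regions held at least 1, against 92.0% of intronic regions, and in replicate 2 the shares were 89.3% and 90.1%. Both replicates had a footprint in 1593 members, 82.0%, against 84.6% of all regions away from starts, and 78 had none in either. Per kb of region, members held 9.88 and 10.4 footprints, against 11.3 and 10.9 in introns. Per region the means were 2.42 and 2.54 in members, against 2.47 and 2.38 in introns. In both replicates 13.8% of members held 4 or more, against 11.6% of intronic, 14.37% of other exonic and 14.43% of intergenic regions. Among regions of 150 to under 250 bp the numbers per kb were 12 and 12.13 in 1304 members, against 12.7 and 12.07 in introns. Footprints had a median length of 10 bp (7 to 53), and 4.31% and 4.24% of them spanned an edge of the coding sequence. Of the 4706 in replicate 1, 56.6% overlapped one of replicate 2 by at least 1 base, and of the 4932 in replicate 2, 55.1% overlapped one of replicate 1. This overlap was not measured outside the members, so it cannot be read as particular to them.

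Inside the members, footprints covered a larger share of coding than of other bases, and about the same share at equal distance from the middle. Coding bases had 138 and 139 footprinted bases per kb, against 102 and 95.7 in the other bases of the same regions, a mean ratio of 1.40 ± 0.0759 (SD, n = 2). The middle base is coding by the rule, however, and footprints were most frequent near the middle, with 291 and 281 footprinted bases per kb in coding sequence within 20 bp of it. At equal distance from the middle the ratio was 0.927 in replicate 1 and 1.00 in replicate 2, a comparison added after the values were seen.

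**Figure D4:**
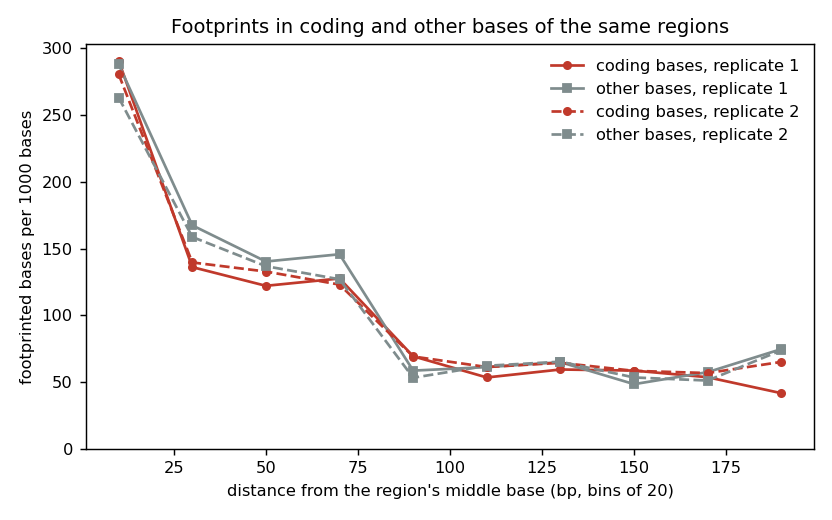
Footprinted bases per 1000 bases by distance from the middle of the region, in bins of 20 bp, for coding bases (red) and other bases (grey) of the coding-exon regions in replicate 1 (solid) and replicate 2 (dashed). The lines run together from about 291 and 281 near the middle in coding bases to under 80 beyond 80 bp in all 4 lines.

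Matches to several GC-rich consensus sequences were more frequent in coding-exon than in intronic regions, and those to the CTCF core and several AT-rich ones less frequent. Each of 20 consensus sequences was searched on both strands, a region counted once per consensus, and the same bases could match more than 1. The NRF1 consensus was found in 2.06% of members, against 0.502% of other exonic, 0.272% of intronic and 0.472% of intergenic regions. It occurs wholly in capitals in the printed Angptl6 and Sptbn4 stretches. NRF1 is a factor of promoters of housekeeping and mitochondrial genes. The SP and KLF consensus GGGCGG was in 18.1% of members and 9.96% of intronic regions, and the ETS consensus CCGGAAG in 4.74% and 2.02%. The E-box CAGCTG was in 33.9% of members and 26.7% of intronic regions. Among other exonic regions the shares were 16.6% for GGGCGG, 3.49% for CCGGAAG and 26.5% for CAGCTG. The MEF2 consensus, of a family that drives muscle genes, was found in 0.154% of members and 1.07% of intronic regions. AGATAA, bound by GATA factors, was in 5.198% and 8.58%, and TGANTCA, bound by AP-1, in 5.61% and 9.76%. The CTCF core was in 83 members, 4.27%, against 6.15% of intronic regions. CTCF folds chromatin into loops. Members with its core had a median signal of 2.23 and 1.68, against 0.855 and 0.722 in members without it. Intronic regions were alike in this, with 2.15 and 1.56 with the core and 0.901 and 0.704 without it. The part of GC content in these shares was not tested.

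The members lay in 1686 genes, of which 1684 carry a protein-coding symbol, 7.69% of the 21911 protein-coding genes. A single member was found in 1492 of them, 2 in 156 and 3 or more in 38. Most hosts also had an accessible promoter: 1448, or 86.0%, had a promoter peak in each replicate, against 68.8% of all protein-coding genes. Hosts and all genes were not matched for coding length or number of annotated starts. Members in hosts with such a promoter had median signals of 0.887 and 0.743, against 0.823 and 0.716 in the 267 members of other hosts. Among the 1674 members of hosts with a promoter peak in each replicate, 182 had a signal above that of the host's promoter in both replicates. Members of the other hosts were not counted in this. There were 32 members on X and 0 on Y. Promoter peaks in each replicate were found at 10 of 10 marker genes of heart muscle, 4 of 4 of endothelium, 4 of 4 of fibroblasts and 2 of 3 of leukocytes, and at 1 of 5 genes of other tissues.

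The strongest member was in Angptl6, which encodes a secreted angiopoietin-like protein. Its signal was 26.04 in replicate 1 and 21.83 in replicate 2, with 10 footprints in each, and the gene had no promoter peak in either. The region lay 1247 bp from a protein-coding start, outside the 1 kb that counted as promoter. The region in Sptbn4, encoding a beta spectrin of the membrane skeleton, lay in coding exon 32 of 35 and had 17.9 and 14.2, beside a promoter of 16.1 and 10.8. Ccdc194 had 18.05 and 12.86 in its coding exon 3 of 4 and no promoter peak in either replicate.

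Spi1, which encodes the myeloid factor PU.1, had 17.3 and 13.5 in the last of its 5 coding exons, beside a promoter of 1.45 and 1.48. The difference was thus seen in both replicates. Inpp5b, an inositol phosphatase gene, had 17.8 and 11.6 in a region 27 bp from another annotated start of a gene that is not protein-coding. Synpo, encoding the actin-associated protein synaptopodin, had 11.73 and 14.98 and was 1 of 2 among the 10 with the higher value in replicate 2.

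Zfp771, a zinc finger gene, had 12.9 and 11.6, close to its promoter at 13.7 and 12.2. Srcin1, encoding an inhibitor of Src kinase, had 11.2 and 10.9, and its promoter 3.42 and 2.98. Rasip1, which acts in the forming vessel wall, had 11.1 and 10.6 in its second coding exon and its promoter 1.94 and 1.92. Myo15b, an unconventional myosin gene, had 10.16 and 11.01 in its first coding exon, 1255 bp from a start, and its promoter 0.66 and 0.70. Among the 10, only Zfp771 had a promoter above its coding-exon region in both replicates. Klf1, which encodes a factor of red blood cell genes, was chosen after its values were seen as a further host with no promoter peak, and had 10.6 and 9.29. The Klf1 region lay 1153 bp from a protein-coding start.

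**Figure D5:**
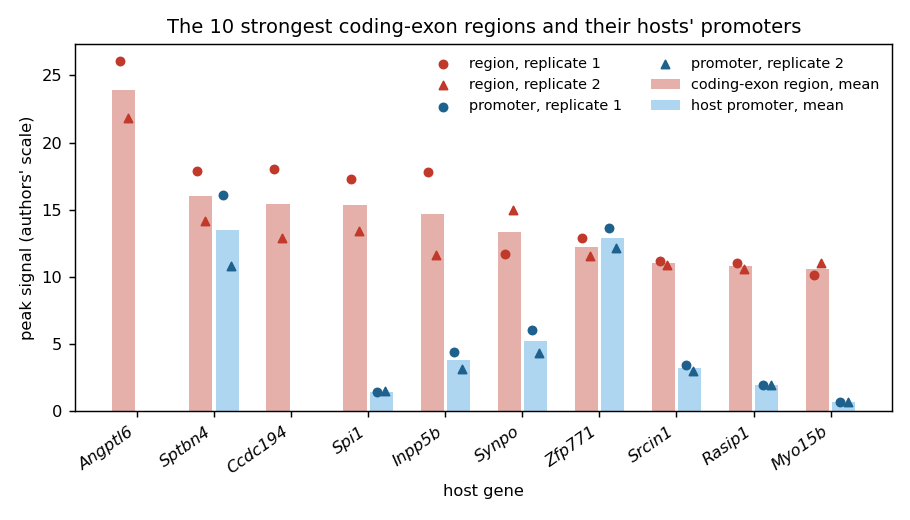
Signal of the 10 strongest coding-exon regions (red) and of the host genes' promoters (blue), with circles for replicate 1, triangles for replicate 2 and bars for their mean from 0. Angptl6 and Ccdc194 have no promoter peak, and only at Zfp771 do both promoter values lie above those of the region.

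Outside the 10 strongest, of which Angptl6 also had 10 footprints in each replicate, the members with the most footprints had low to moderate signal. They were 440 to 980 bp wide, against a median of 200 bp over all members, so their counts are not densities. The region in Pou2f3, encoding a POU-domain factor, was 740 bp wide with 11 and 12 footprints and a signal of 1.97 and 1.58. Only 19.2% of the bases of this region were coding. One in Gata4, a central factor of heart muscle, covered 980 bp of the first coding exon and its surroundings with 10 and 10 footprints and 1.16 and 1.29. Klf7 had 11 and 9 footprints in a region that holds an annotated start of a gene that is not protein-coding, Kcng2, encoding a potassium channel subunit, 10 and 10, and Tchh, encoding trichohyalin of the hair follicle, 8 and 14. The widest members were in Plec (1760 bp), Irs1 (1460 bp) and Mex3b (1180 bp). In Plec, which encodes plectin, a linker of the cytoskeleton, the signal was 0.30 and 0.34 and the footprints numbered 1 and 9, so the replicates did not agree on them.

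Several hosts held 5 members or more. Syne1, encoding nesprin of the nuclear envelope, held 7 members in 26.4 kb of coding sequence, with signals of up to 3.48 and 2.98. Macf1, a linker of microtubules and actin, held 6 in 22.1 kb, Ccdc162 6 in 6.56 kb and Plec 6 in 14.1 kb, and Dst, Cmya5 and Tchh held 5 each. The 6 of Plec all had signals under 0.4, while the 5 of Dst, encoding dystonin, ranged between 0.91 and 3.91 in replicate 1.

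Genes of heart muscle were among the hosts, along with genes of its vessels. Counts are set beside the 7.69% of all protein-coding genes that held a member, without allowance for coding length. Of 30 genes of the sarcomere and calcium handling, 5 held members, among them Tpm1, encoding tropomyosin, with 2.59 and 1.93. Of 24 cardiac transcription factors, 5 held members, Gata4, Mef2a, Mef2d, Tbx3 and Zfpm2, with 3.02 and 1.73 in the last coding exon of Mef2a and 2.26 and 1.77 in Mef2d. Of 28 genes of the intercalated disc and cytoskeleton, 9 held 29 members with a low median signal of 0.575 and 0.442, against 0.879 and 0.740 over all members. The highest of them was in Macf1, with 4.82 and 3.80.

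Of 22 endothelial genes, 6 held 1 member each, with medians of 1.57 and 1.55. Nos3, which encodes the nitric oxide synthase of endothelium, had 7.50 and 4.69 in coding exon 25 of 26, in a region that holds an annotated start of a gene that is not protein-coding. Plvap, encoding a protein of endothelial pores, had 5.52 and 4.92. Among 14 genes of smooth muscle and pericytes, 2 held members. Notch3, the receptor of mural cells, had 7.18 and 5.78 in its strongest member, and Smtn, encoding smoothelin, 0.82 and 0.41, with such a start 74 bp away. Of 26 fibroblast and matrix genes, 6 held members, the strongest in Col6a3, a collagen gene, with 1.38 and 1.36, and in Hspg2, encoding perlecan, with 1.16 and 1.54.

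Of 26 genes of fuel use and mitochondria, 3 held members, among them Slc25a4, the adenine nucleotide carrier, with 2.82 and 2.08. Of 26 receptor genes, 8 did, with 3.50 and 2.72 in Lrp1 and 0.96 and 1.00 in Insr, the insulin receptor. Of 24 genes of chromatin and transcription, 6 did, with 4.87 and 3.95 in Kmt2a, a histone methyltransferase, and 1.57 and 1.00 in Chd8, a remodeller. Of 39 Hox genes 1 did, Hoxb2, with 0.77 and 0.94, 991 bp from a start of a gene that is not protein-coding.

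Genes of other tissues were not absent. Of 18 hepatocyte genes 1 held a member, Apoa1, the main protein of high-density lipoprotein, with 4.49 and 4.63 in its last coding exon. Of 20 neuronal genes 4 did, with 4.11 and 3.27 in the only coding exon of Neurod1, a neuronal factor, within 1 kb of a start of a gene that is not protein-coding, and 0.65 and 0.81 in Shank3, a scaffold of synapses. Neither Apoa1 nor Neurod1 had a promoter peak in each replicate, and the endothelial host Plvap also lacked one. The Apoa1 region lay 1260 bp from a protein-coding start.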

How the data were processed

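DNase-seq was done on heart tissue in 1 group of 2 biological replicates. Per the submitters' processing notes, all files were made by the authors from the filtered alignment of each replicate alone on mm10, without pooling. The authors scaled the deposited peak signal to read depth, per the submitters' processing notes. Not given in the sources used here: the exact scaling, the callers with versions, read totals and how CAST reads were handled. Signals under 1 fell on a grid of whole steps, to within 0.02 of 1 step. A step was 0.00709 for replicate 1 and 0.00597 for replicate 2, and the median member stood at 124 steps in each. The deposited false discovery rates (q-values) cover runs of bases under 0.05. Of the footprints only positions were used. Other values of the deposited footprint lists were not used.

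The larger peak set of each replicate was merged over both, touching peaks included. Starts, coding segments and classes came from GENCODE M21. A merged region took the highest peak of each replicate as its value, and footprints counted with 1 base of overlap. A promoter reached 1 kb on both sides of each start. The members, gene lists and consensus sequences were chosen with earlier results of these data known. The text names hosts of the 10 strongest members, of the 5 others with most footprints, of the 3 widest, the 5 hosts with most members, and up to 2 hosts per list by signal; some of these are not reported here. All 36-base words were single-copy in 1848 members (95.1%). On simulated regions, class, sharing and footprint number were recovered in 100% of 900. Intervals are exact 95% Poisson intervals for counting error only. Tables were handled with pandas 2.3.3 and numpy 2.4.6 under Python 3.11.15, intervals with scipy 1.17.1, word counts with numba 0.67.0 and figures with matplotlib 3.10.9. Alternatives covered peak sets, distances, ways to assign a region to coding sequence, annotation, single replicates, overlap, base composition and position. Reads and alleles were not analysed here.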

Additional observations from a re-analysis of the deposited data

How the results depend on the processing

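No paired analysis was possible because there was 1 group and no contrast. The number of members was 1163 with the smaller peak set, against 1943; the other alternatives gave 1527 to 1922, and a single replicate 2795 to 2813. The signal ratio to introns, 0.978, was 0.7541 within bands of GC content and 0.898 to 0.9057 with a single replicate; with the smaller set it was 1.01. Median peak width was 180 bp throughout. The share with a footprint, 89.0% on average, was 95.66% with the smaller set, 89.49% over 2 kb from starts and 77.36% to 78.39% with a single replicate's regions. The footprint ratio of coding to other bases, 1.40, was 1.23 with the smaller set, 1.27 where 50% of a region was coding, 1.275 to 1.343 with a single replicate and 0.9654 at equal distance from the middle. The density ratio to introns, 2.04, was 2.084 to 2.479 with a single replicate and 0.5955 within GC bands, where the direction turned. The cause was not tested. The alternatives by GC band, by distance from the middle and of density with a single replicate were chosen after seeing the data. Hosts with a promoter peak in each replicate numbered 1407 with windows of 500 bp, against 1448. The unknown read totals limit what can be said of weak members, and 2 replicates allow no exact paired test below p = 0.5.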
